A study of Mus musculus with 12 samples.

Results

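The ribosome of the cytosol is built from a set of ribosomal proteins, and the messenger RNAs of 84 genes named as ribosomal proteins were compared between the retinal pigment epithelium (RPE) of WT mice and that of rd6 mice. Genes were taken by symbol (Rpl or Rps followed by a digit, Rplp followed by a digit, or Rpsa), symbols ending in -ps and the Rps6k kinases were dropped, and the remaining genes were selected on their mean over all 12 libraries, which had to reach 100 normalized counts. Among 28591 genes measured, 93 had such a symbol and 84 of these reached that mean. The mean is taken over both genotypes alike and does not use the difference between them. There were 48 large-subunit and 36 small-subunit symbols. By what is known of each gene, 70 encode ribosomal proteins proper, 9 are retrocopies (spliced messages that were copied back into the genome), 3 are paralogs with introns of their own (Rpl3l, Rpl22l1 and Rps27l), and 2 encode related proteins that are not part of the ribosome (Rpl7l1 and Rps19bp1).

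RNA was sequenced from 6 WT and 6 Mfrp rd6/rd6 mice, all 1 month old. Each library was made from total RNA, with the RPE of the left and right eye pooled, and the labels name no treatment in either group. The WT mice are C57BL/6J. The rd6 allele removes bases at a splice site of Mfrp, the gene of a membrane protein of the RPE, and every cell of the animal carries it. A replicate is a separate sample in the labels. If replicates share a litter or a day, the p-values below measure only the spread between these samples. Values are normalized counts, that is, reads counted on a gene divided by the size factor of the library. Between 28907262 and 33152725 reads were counted on genes per library. Mfrp itself lay at 30132 to 45442 in WT and at 20442 to 29732 in rd6, with no overlap between the groups. Reads from a message with a skipped exon still count towards the gene. The summed level of 15 RPE markers was 1640241 to 2384974 in WT and 1574237 to 2075663 in rd6.

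Each ribosome holds a copy of nearly every ribosomal protein, and cells make these proteins in matched amounts. Many of their messages start with a C followed by a run of C and T, the terminal oligopyrimidine tract, through which the kinase complex mTORC1 and the protein LARP1 set how strongly they are translated. The RPE is a layer of nondividing pigmented cells that takes up the shed tips of photoreceptor outer segments and keeps the visual cycle running. Ribosomal protein genes have left many processed copies in mammalian genomes, which bears on how their reads are counted.

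A pyrimidine tract at the start of the message is the sequence this family is best known for, and RefSeq start sites (GRCm38.p6, the assembly called mm10) were found for 62 of the 84 genes. The lines that follow give the 10 bases before and the 20 bases after the annotated start of 11 members, read in the direction of transcription, with capitals for an unbroken run of C and T that holds the first transcribed base. The first 5 are examples with a run, Rps15a among them as a member that was called, the next 3 are a gene with its retrocopy and another retrocopy, and the last 3, among them the member with the largest change, have none.
Rpl15, chr14:18270967-18270996, minus strand: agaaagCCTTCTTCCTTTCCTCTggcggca
Rpl27a, chr7:109519185-109519214, plus strand: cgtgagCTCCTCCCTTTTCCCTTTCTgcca
Rps6, chr4:86857348-86857377, minus strand: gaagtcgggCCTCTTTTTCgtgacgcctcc
Rps10, chr17:27635225-27635254, minus strand: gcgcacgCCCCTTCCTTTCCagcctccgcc
Rps15a, chr7:118116128-118116157, minus strand: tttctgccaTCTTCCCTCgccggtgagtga
Rps27, chr3:90213629-90213658, minus strand: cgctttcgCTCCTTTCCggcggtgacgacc
Rps27rt, chr9:114982720-114982749, minus strand: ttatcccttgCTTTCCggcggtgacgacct
Rpl32l, chr10:20208429-20208458, plus strand: aaatgaccagCTTCTTCCTTggtgctgcct
Rpl3l, chr17:24727816-24727845, plus strand: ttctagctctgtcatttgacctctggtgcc
Rpl4, chr9:64173377-64173406, plus strand: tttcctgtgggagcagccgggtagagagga
Rps3, chr7:99483690-99483719, minus strand: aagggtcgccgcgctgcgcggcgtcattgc

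At the annotated start itself, 14 of the 62 genes (22.6%) began with C and went on as an unbroken run of at least 5 C or T, against 813 of the 27025 genes of the RefSeq table (3.01%). Counting a run that begins within 5 bases either way of the start, the shares were 30.6% (19 genes) and 14.5%. In the 250 bases before the start, the letters CCGGAAG stood on either strand in 17 of the 62 genes (27.4%), against 7.83% of all genes. The letters AAGATGG were in 8.06% against 5.18%, and TATAAA in 8.06% against 14.3%. These are matches of letters, and an annotated start can lie away from the start used in the RPE.

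Few ribosomal protein genes passed the test between rd6 and WT RPE, and most had small fold changes above 0 that were within the spread between libraries. Of the 84 members 3 were higher in rd6 at an adjusted p (q, Benjamini-Hochberg over all 17768 genes tested with limma) below 0.05, and 0 were lower. Over all genes tested 11.4% were higher and 11.6% lower, so the members called were fewer than the background share. At an unadjusted p below 0.05, 12 members were higher and 0 lower, where all genes had 17.2% higher and 18.1% lower. By edgeR on the recovered reads the count was again 3 higher and 0 lower, beside 11.1% and 11.7% of all genes, and by DESeq2 it was 4 higher and 0 lower, beside 8.17% and 8.38%. The count depended on single libraries: it was 10 without WT replicate 4, 6 without WT replicate 5 and 5 without rd6 replicate 4. It was 2 without WT replicate 3, rd6 replicate 1 or rd6 replicate 3, and 1 (Rpl3l) without any of the others. Over all 17768 genes 2024 were higher with every library in. This was 2428 without WT replicate 4, 2088 without WT replicate 5 and 1886 without rd6 replicate 4. Without each of the other libraries in turn, 1631 to 1876 of all genes were higher. The median log2 fold change of the members was 0.17, beside 0.00 for all genes tested, and 78 of 84 members lay above 0, where 50.7% of all genes did. The standard error of a member was 0.11 at the median. The 95% interval stayed within a log2 fold change of 0.81 in either direction for 83 of the 84 members.

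**Figure D1:**
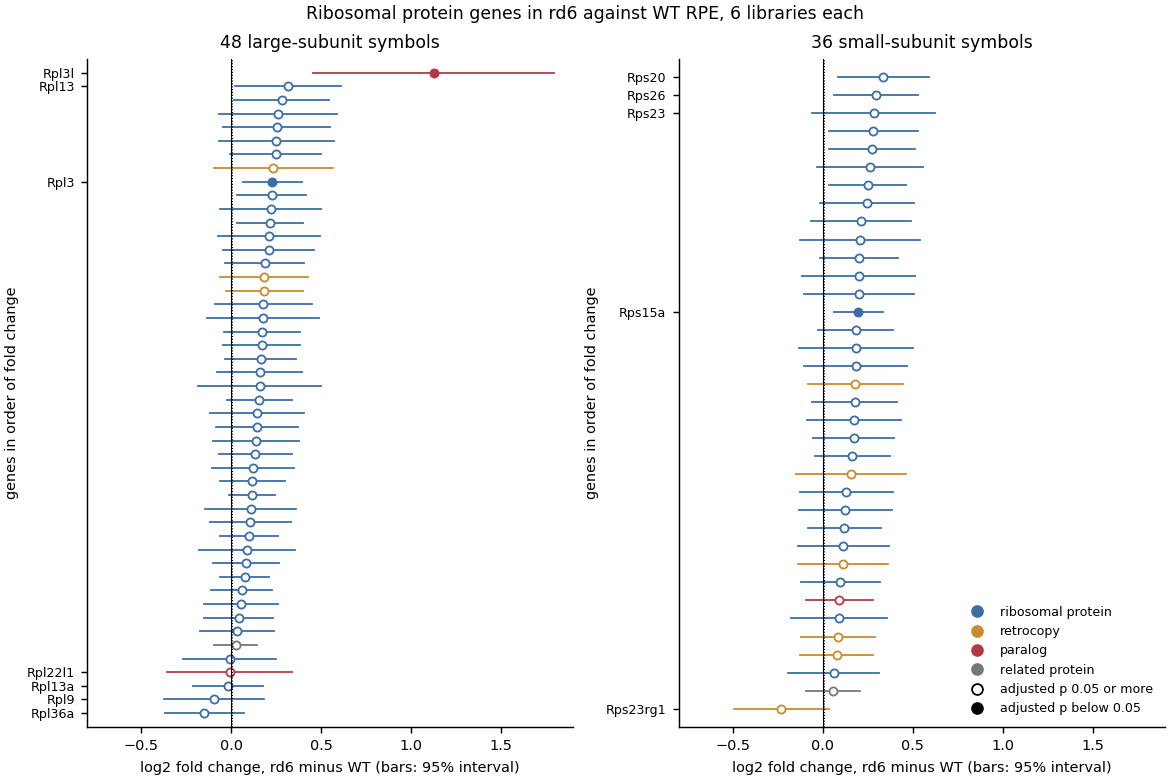
Log2 fold change (rd6 minus WT) of each of the 84 genes in order of size with its 95% interval from limma, with names for the genes called and for the 5 largest and 5 smallest changes, large-subunit symbols on the left and small-subunit symbols on the right, n = 6 libraries per group. Filled dots mark the 3 genes with q below 0.05, and the dotted line is the median of all genes tested. Rpl3l stands alone at 1.13, and nearly all other genes lie between 0 and 0.34.

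By subunit, the large-subunit members had a median log2 fold change of 0.16 with 2 of 48 called higher, and the small-subunit members one of 0.18 with 1 of 36 called higher. Among ribosomal proteins proper all 28 small-subunit genes lay above 0, and 38 of 42 large-subunit genes did. The 9 retrocopies had a median of 0.16, with 8 above 0 and 0 called. The shares called in these groups are to be read beside the 11.4% of all genes higher and 11.6% lower.

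The level of the family varied among libraries within each genotype. Summed over the members, the share of all normalized counts was 0.478% ± 0.0781 (SD, n = 6) in WT and 0.548% ± 0.0615 in rd6, a ratio of 1.15. WT replicates 1, 2 and 3 had 0.385%, 0.415% and 0.458%, while WT replicates 4, 5 and 6 had 0.603%, 0.522% and 0.486%. The rd6 replicates had 0.562%, 0.540%, 0.508%, 0.477%, 0.657% and 0.541% in order of their numbers. The groups therefore overlapped widely: the highest WT library exceeded all rd6 libraries but replicate 5, and the lowest rd6 library lay below 3 of the WT libraries. WT replicate 1 was the lowest of all 12 libraries for 51 of the 84 members, WT replicate 2 for 22, and rd6 replicate 5 was the highest for 49.

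**Figure D2:**
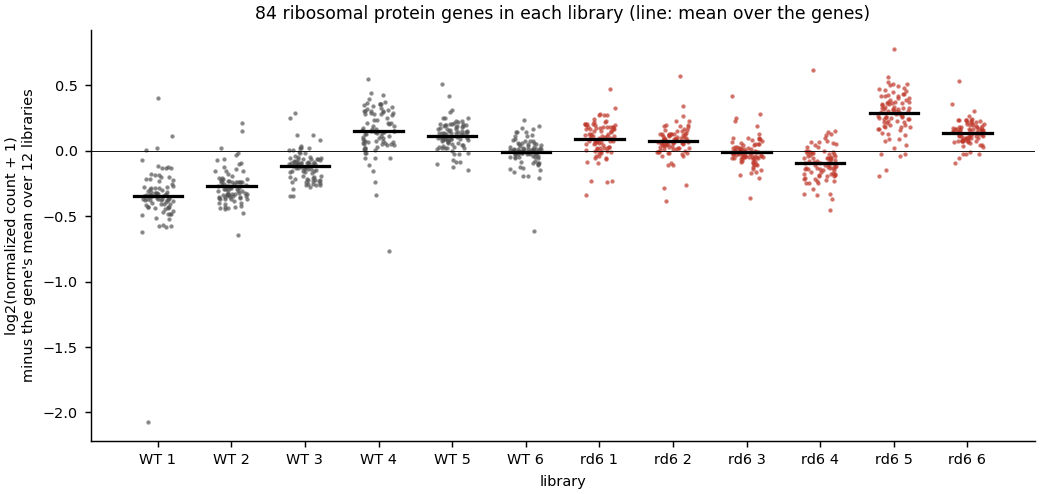
Each dot is a member in a library, as log2(normalized count + 1) minus the mean of that gene over the 12 libraries, with WT in grey, rd6 in red and a line at the mean over the 84 genes. The lines run from -0.35 in WT replicate 1 to 0.29 in rd6 replicate 5, and the far point at the bottom of WT replicate 1 is Rpl3l.

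The members rose and fell together from library to library. Within the groups 61.4% of the summed squared deviations of the 84 genes lay in the family level, the mean log2 value of all members in a library. The within-group SD of a member was 0.20 on the log2 scale at the median, against 0.15 for all genes above the same mean, and it was 0.10 once the family level was taken out. It was larger in WT than in rd6 for 72 of 84 members. The steadiest genes were Rpl7l1 and Rpl7a with an SD of 0.09, and the most variable was Rpl3l with 0.60.

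Some markers of other cells were high in single libraries. The summed level of 6 markers of ocular surface epithelium, keratins among them, was 182023 in WT replicate 4 and 100907 in rd6 replicate 5, the libraries with the highest family level in their groups, and ran from 11.4 to 57164 in the other libraries. WT replicates 1, 2 and 3 had 342, 11886 and 11.4. In rd6 replicates 1, 2, 3 and 4 the markers were at 57164, 18985, 3254 and 533, in the order of their family level. WT replicate 5 and rd6 replicate 6, second highest in their groups in that level, had 323 and 832, and WT replicate 6 had 4480. Between the groups 14 of 15 markers of microglia and macrophages were higher in rd6 and 0 lower, with a summed level of 15734 to 23237 in WT and 29523 to 48288 in rd6. Of 10 endothelial markers 7 were higher and 0 lower, with a summed level of 6268 to 12230 in WT and 10743 to 23678 in rd6. Lower in rd6 were 5 of 15 markers of rod photoreceptors (summed level 54013 to 97685 in WT and 30701 to 82307 in rd6), 4 of 7 of choroidal melanocytes and Schwann cells (9072 to 12009 and 5863 to 6863), and 5 of the 15 RPE markers, of which 1 was higher. The part of other cells in the level of the ribosomal protein genes was not tested, and in such bulk samples more cells of a type and more RNA per cell cannot be told apart. With WT replicates 1, 2 and 3 left out, the median log2 fold change of the members was -0.027, 33 of 84 lay above 0, and Rpl3l alone was called, beside 6.34% of all genes called higher and 4.36% lower. These libraries were chosen for their low values, so the direction of that move follows from the choice. With WT replicate 4 and rd6 replicate 5 left out, the median was 0.17 and 6 members were higher, beside 12.6% of all genes higher and 13.1% lower.

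Rpl3l, the paralog of Rpl3 that replaces it in the ribosomes of heart and skeletal muscle, was the member with the largest change. It lay at 77.9, 276, 394, 194, 353 and 216 in WT replicates 1 to 6 and at 458, 492, 443, 508, 568 and 478 in rd6. Every rd6 library was above every WT library, and Rpl3l was the only member whose groups did not overlap, which was so for 5.77% of all genes in that direction and for 5.67% in the other. The log2 fold change was 1.13 ± 0.31 (SE, limma, q = 0.0196), or 2.18-fold, and an exact permutation test over the 924 ways to form both groups gave a two-sided p of 0.00216, the smallest it can give. It was also the only member called with a log2 fold change past 0.81, which 4.69% of all genes passed upward and 2.12% downward. WT replicate 1 weighed on its size: without that library the log2 fold change was 0.82 (q = 0.00536). Its call held in every setting that gave it a value, and q came closest to the threshold without WT replicate 4 and rd6 replicate 5.

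Some muscle markers moved in the same direction as Rpl3l. Of 8 muscle markers 3 were higher in rd6 and 0 lower: Des (desmin), Myh2 (a fast myosin heavy chain) and Tnnt3 (fast troponin T). Their log2 fold changes were 1.03, 1.55 and 0.98 with q of 0.0132, 0.0218 and 0.0211 in limma. Of the 5 not called, Acta2 (smooth muscle actin) had a log2 fold change of -0.29 (q = 0.0632), and Myh11, Tagln, Ckm and Acta1 had 1.77, 0.85, 0.84 and 0.76. The summed level of the 8 markers was 11866 to 33846 in WT and 30670 to 41910 in rd6, and none of the 8 was at 0 in all libraries. WT replicate 1, lowest in Rpl3l, was also the lowest library in that sum and in Des, Ckm, Acta1, Myh2, Tnnt3 and Myh11, but not in Acta2 or Tagln. The part of muscle RNA in the change of Rpl3l was not tested. Rpl3l shares no 100-base stretch of its coding sequence with another locus, so its reads can be told from those of Rpl3. Over an alignment of both coding sequences 73.0% of positions were identical, and the longest identical run was 22 bases. The first 60 coding bases of both are shown with capitals where they differ, at 13 positions.
Rpl3: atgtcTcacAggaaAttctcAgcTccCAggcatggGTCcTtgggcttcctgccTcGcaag
Rpl3l: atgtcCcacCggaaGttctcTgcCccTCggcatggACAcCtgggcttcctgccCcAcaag

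The other members called were Rps15a and Rpl3. Rps15a, a protein of the small subunit, lay between 2430 and 3172 in WT (median 2856) and between 3031 and 3393 in rd6 (median 3247). The lowest rd6 library was below the highest WT library, so the groups overlapped at their edges. The log2 fold change was 0.20 ± 0.06 (SE, limma, q = 0.0374), with a two-sided p of 0.00866 in the exact permutation test. Rpl3, a large protein next to the peptidyl transferase center, lay between 941 and 1206 in WT (median 1127) and between 1172 and 1498 in rd6 (median 1269), with rd6 replicate 3 inside the WT range. Its log2 fold change was 0.23 ± 0.08 (SE, limma, q = 0.0433), again with p = 0.00866 in the exact permutation test. Both calls sat close to the threshold. In limma neither held without WT replicate 1, 2 or 6, without rd6 replicate 2, 4, 5 or 6, or without the filter on low counts. Rps15a was also lost without rd6 replicate 3 and when WT replicate 4 and rd6 replicate 5 were both left out, and Rpl3 without WT replicate 3 or rd6 replicate 1. Over all libraries left out in turn, q ran from 0.0153 to 0.0806 for Rps15a and from 0.0291 to 0.0931 for Rpl3.

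**Figure D3:**
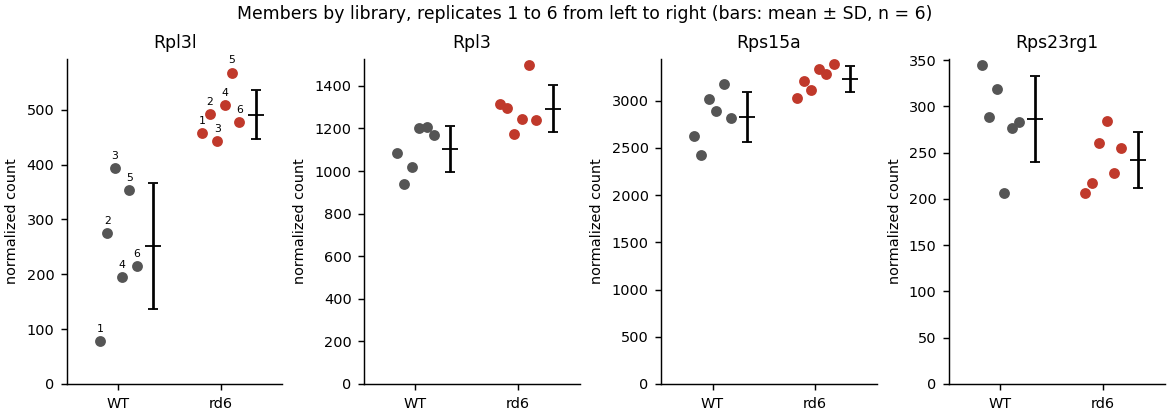
Normalized counts in each library for the 3 members called and for Rps23rg1, the member with the lowest fold change, with the mean and SD (n = 6) beside the dots and all axes starting at 0. The groups of Rpl3l do not overlap, those of Rpl3 and Rps15a overlap at their edges, and those of Rps23rg1 overlap widely.

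Behind Rpl3l the largest fold changes were those of Rps20, Rpl13, Rps26 and Rps23, none of them called by limma or edgeR, while DESeq2 called Rps20 higher. Rps20 lay between 1268 and 2131 in WT (median 1790) and between 1856 and 2372 in rd6 (median 2151), a log2 fold change of 0.34 ± 0.12 (SE, limma q = 0.0552). Rpl13, Rps26 and Rps23, the last at the decoding center of the small subunit, had log2 fold changes of 0.32, 0.29 and 0.28 with q of 0.115, 0.0670 and 0.226. Their groups overlapped.

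The lowest fold changes were those of Rps23rg1, Rpl36a, Rpl9, Rpl13a and Rpl22l1. Rps23rg1 is a retrocopy of Rps23 that is transcribed from the strand opposite to its parent's message, and 19 single-base edits separate the coding sequence of Rps23 from the reverse strand of its transcript. It lay between 206 and 344 in WT (median 286) and between 206 and 285 in rd6 (median 242), a log2 fold change of -0.23 ± 0.12 (SE, limma q = 0.195). It moved against the family also within WT, where it was highest in replicate 1 and lowest in replicate 4. Rpl36a (-0.15), Rpl9 (-0.10), Rpl13a (-0.02) and Rpl22l1 (-0.01) had q between 0.315 and 0.976.

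Measured against the family instead, Rpl3l was again the member called. When the family level was subtracted from every library before the limma fit, Rpl3l was higher in rd6 than the family (log2 difference 0.97 ± 0.28, SE, q = 0.0341) and no other member was called in either direction. In that fit 4.87% of all genes tested were higher and 8.97% lower, and at an unadjusted p below 0.05, 2 members were higher and 2 lower. The call of Rpl3l was kept by DESeq2 and lost with edgeR, which had 0 members called in that comparison. In limma 0 members were higher than the family without WT replicate 6 or without any single rd6 library, and Rps23rg1 was lower without WT replicate 4. The other members had differences from the family between -0.39 (Rps23rg1) and 0.18 (Rps20).

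By their place in the ribosome, the members gave the following. The P stalk, which recruits elongation factors to the large subunit, consists of Rplp0, Rplp1 and Rplp2, with log2 fold changes of 0.16 ± 0.16, -0.01 ± 0.12 and 0.25 ± 0.12 (SE, limma q of 0.509, 0.968 and 0.152). Rplp0 had its highest level of all libraries in WT replicate 4, at 8094, where the other WT libraries lay between 3865 and 5647. Rpl5 and Rpl11, which carry 5S RNA into the ribosome and bind MDM2 when assembly fails, had 0.06 ± 0.08 and 0.11 ± 0.12 (q of 0.642 and 0.541). Of 8 proteins lining or ringing the peptide exit tunnel, which include Rpl17 and Rpl23a from below the mean of 100, all lay above 0 with a median of 0.21 and 0 called. Of 10 genes mutated in Diamond-Blackfan anemia, all lay above 0 with a median of 0.23 and 0 called. With 11.4% of all genes higher, 11.6% lower and 50.7% above 0, a count of 0 called says little for groups of this size. Rpsa, a small-subunit protein also known as the laminin receptor, lay between 1542 and 2736 in WT and between 1959 and 3035 in rd6, a log2 fold change of 0.20 ± 0.14 (q = 0.341).

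The remaining paralogs stayed within their spread. Rpl22l1, the paralog of Rpl22, lay between 223 and 405 in WT and between 207 and 366 in rd6 (log2 fold change -0.01, 95% interval -0.36 to 0.34). Rps27l, a paralog of Rps27 known as a target of p53, lay between 675 and 988 in WT and between 753 and 892 in rd6 (0.09, interval -0.09 to 0.28). Fau, which encodes a ribosomal protein fused to a ubiquitin-like protein and falls outside the symbol rule, had a log2 fold change of 0.33 with q = 0.0895. Rack1, a scaffold on the small subunit, had 0.19 with q = 0.266.

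By chromosome position, Rps25 (chr9:44407139-44410427) lies close to Mfrp, which begins at 44101729 on chromosome 9, and Rplp1 is also within 20 Mb of it. Rps25 lay between 500 and 736 in WT (median 604) and between 566 and 786 in rd6 (median 682), with a log2 fold change of 0.17 ± 0.10 (SE, limma q = 0.264), equal to the median of the members.

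Levels differed far more among members than between genotypes. The mean over all libraries chose the members, so levels are a description. The highest mean normalized counts were those of Rpl4 (10063), Rpl8 (8740), Rps3 (7892), Rpl41 (7864) and Rplp1 (6580). Per kb of annotated exon these were 5014, 6431, 1761, 6733 and 13186, so that Rplp1 led these 5 on that scale. The lowest were Rpl12 (117), Rpl9 (119), Rps27 (123), Rpl36a (124) and Rpl27 (165), at 32.6, 38.7, 118, 74.7 and 108 per kb. Just outside the mean of 100 lay Rps29 (97.0), Rps12 (83.3) and Rpl17 (79.9). The other genes with a matching symbol and a lower mean were Rpl23a (79.1), Rps28 (35.4), Rpl24 (21.4), Rpl38 (20.9) and the paralogs Rpl36al (12.3) and Rpl39l (5.78).

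Most of these low values belong to genes whose coding sequence recurs at other loci, with the exception of Rpl39l, which shared no 100-base coding stretch. Of the 77 ribosomal proteins with such a symbol, 23 had every 100-base stretch of their coding sequence also in a transcript of another locus, and 6 had none. The median mean count was 183 in the former and 3622 in the latter, or 108 and 2548 per kb. In the groups between, those with a share above 0% but under 50% had a median mean count of 2803, and those from 50% to under 100% one of 808. Rps29, Rpl17, Rpl23a, Rps28, Rpl24 and Rpl38 shared 100% of their coding stretches, while Rps3 and Rpl41 were among those that shared none. How reads that fit several places were assigned is not given beyond standard parameters.

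Rps27 and its retrocopy Rps27rt show this to the last base. Rps27 on chromosome 3 lay between 86.8 and 163 in WT and between 102 and 145 in rd6, while Rps27rt, an intronless copy on chromosome 9, lay between 3029 and 4493 in WT and between 3627 and 4500 in rd6. Their annotated coding sequences are identical over 252 bases, shown here once with the start codon in capitals.
Rps27 and Rps27rt: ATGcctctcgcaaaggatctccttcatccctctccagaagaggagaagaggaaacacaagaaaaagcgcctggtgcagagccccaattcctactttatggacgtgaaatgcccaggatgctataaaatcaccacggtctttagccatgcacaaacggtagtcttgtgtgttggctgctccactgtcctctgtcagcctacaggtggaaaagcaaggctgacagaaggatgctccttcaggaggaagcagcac
Reads from these stretches cannot be placed at either locus by sequence, so neither level can be taken as that gene's own expression.

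Across the family 443 genes of the table, mostly annotated pseudogenes, shared such stretches with a ribosomal protein and were its closest match. They drew on average 288262 ± 48066 normalized counts in WT and 322642 ± 31593 in rd6 (SD, n = 6), against 128898 ± 19821 and 142830 ± 13251 for the 77 ribosomal protein genes themselves. The part of both taken by the copies was 69.1% ± 0.345 in WT and 69.3% ± 0.296 in rd6. For 26 proteins the gene itself held under 10% of the sum with its copies. Rpl24 held 21.4 of 4145, Rps12 83.3 of 7439, and Rps29 97.0 of 6061, of which Gm14303 held 5964. Rpl3-ps1 had a mean of 7473, while Rpl3 had 1199. Over the most counted copy of each of 71 proteins, 15 copies contain the parent's coding sequence without an edit and 51 with at most 5.

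**Figure D4:**
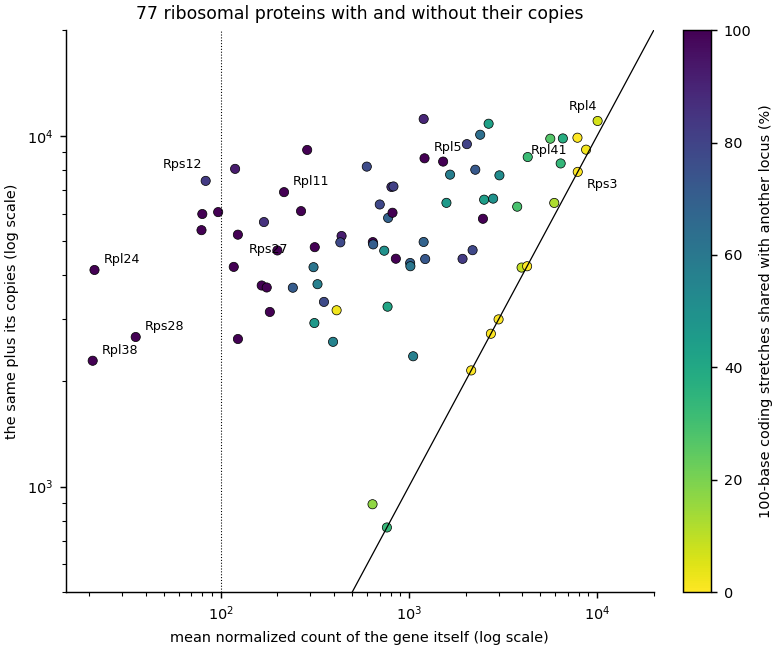
Mean normalized count of each of 77 ribosomal proteins (x axis, log scale) against the same count with its copies added (y axis, log scale), colored by the share of 100-base coding stretches found at another locus, with the line of equality and a dotted line at the mean of 100. Proteins with no shared stretch lie on or near the line, and those with 100% shared lie above it, most of them far above. Among the latter Rpl15 had a count of 2475 and a sum of 5800, and Rpl38, the lowest in count, 20.9 and 2284.

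With the copies added to their parents, a step chosen after the values were seen, few proteins were called. All 77 summed ribosomal proteins lay above 0, with log2 fold changes from 0.05 to 0.35 and a median of 0.18, and their summed means ran from 764 to 11168, where the genes themselves ran from 20.9 to 10063. Of these 2 were higher and 0 lower, Rps15a (0.23, q = 0.0346) and Rps27a (0.35, q = 0.0239), beside 11.6% of all entries higher and 12% lower in that limma fit. Rpl3 was not called there (0.19, q = 0.130). The summed values share the swings of the family from library to library, so their common sign is not independent from protein to protein. Rpl36a and Rpl9, below 0 by their own counts, lay at 0.19 and 0.075 with their copies. In all, 27 members have a gene of a small nucleolar RNA inside, and 21 overlap another coding gene. These overlaps were taken by position alone. Whether counts of the members hold reads of these genes depends on exons and strand, which were not compared.

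The wider set of genes for protein synthesis moved in both directions. Of 247 tested genes outside the family, 32 were higher and 16 lower, beside 11.4% and 11.6% of all genes, and the median of their log2 fold changes was 0.08. The count higher ran from 18 to 44 when single libraries were left out. It was 20 without WT replicate 1, 18 without WT replicate 2, 20 without rd6 replicate 2 and 21 without rd6 replicate 6. Calls higher over all genes also fell in these fits, to 1728, 1631, 1648 and 1762 of 17768 in that order, from 2024. Mitochondrial ribosomal proteins, which translate the messages of the mitochondrial genome, made up 22 of the calls upward, with 22 of 77 higher, 2 lower and a median of 0.15. Their largest were Mrpl52, Mrpl12 and Mrps34 (0.35, 0.33 and 0.33, with q of 0.0105, 0.0110 and 0.0032). Mrps34 lay between 814 and 1016 in WT and between 1060 and 1282 in rd6, with no overlap. Their median was near that of the cytosolic members, and their standard error was smaller, 0.07 against 0.11 at the median.

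Messages that share the terminal oligopyrimidine tract but encode other proteins also lay mostly above 0, with 16 of 19 above 0, a median of 0.13 and 0 called, where 11.4% of all genes were higher and 11.6% lower. Hosts of small nucleolar RNAs had 9 of 11 above 0, a median of 0.16 and 0 called. Of 56 ribosome biogenesis genes 3 were higher and 0 lower (median 0.04), fewer than the background share: Rrp1b (0.42, q = 0.00135), Rpf2 (0.32, q = 0.0315) and Mphosph10 (0.28, q = 0.0288), all with roles in making the ribosomal RNA or the subunits. Of 15 genes for RNA polymerase I and its factors, Ttf1 and Polr1a were lower (-0.35 and -0.29) and Twistnb was higher (0.25), with q of 0.0112, 0.00893 and 0.00884.

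The largest falls on these lists were those of Deptor, Eif4g3 and Mtor, which control translation. Of 18 genes of mTORC1 and S6 kinase signaling 6 were lower and 1 higher, with a median of -0.09, beside 11.6% of all genes lower and 11.4% higher. Deptor, an inhibitor bound to mTOR, lay between 567 and 683 in WT and between 283 and 388 in rd6 (log2 fold change -0.85 ± 0.08, SE, limma q = 9.44e-06). Mtor lay between 6418 and 10091 in WT and between 3228 and 6569 in rd6 (-0.63 ± 0.16, q = 0.0144), and Rps6ka1, a kinase that phosphorylates ribosomal protein S6, was higher (0.52 ± 0.08, q = 0.000416). The lists thus hold both an inhibitor and the kinase itself among the genes that fell. Of 37 initiation factors 3 were higher and 3 lower, a count near that background. These calls were led by Eif4g3, a scaffold of cap binding, at -0.73 ± 0.07 (q = 1.51e-05), Eif4ebp2, a repressor of initiation, at -0.30 ± 0.04 (q = 0.000285), and Eif3j1 at 0.25 ± 0.06 (q = 0.00842).

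Beside the same 11.4% of all genes higher and 11.6% lower, 2 of 9 elongation factors were higher: Eef1a2, the form of the factor found in muscle and neurons, at 0.77 ± 0.23 (q = 0.0290), and Eef2k, the kinase that slows elongation, at 0.39 ± 0.10 (q = 0.0175). Eef1a2 lay between 386 and 1062 in WT and between 976 and 1718 in rd6. The muscle markers given above moved in the same direction, and their part in Eef1a2 was not tested either. Of 16 genes of ribosome quality control and turnover 3 were lower and 0 higher, the ubiquitin ligases Mdm2 (-0.24, q = 0.0112) and Huwe1 (-0.23, q = 0.0315) and the deubiquitinase Usp10 (-0.15, q = 0.0432).

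**Figure D5:**
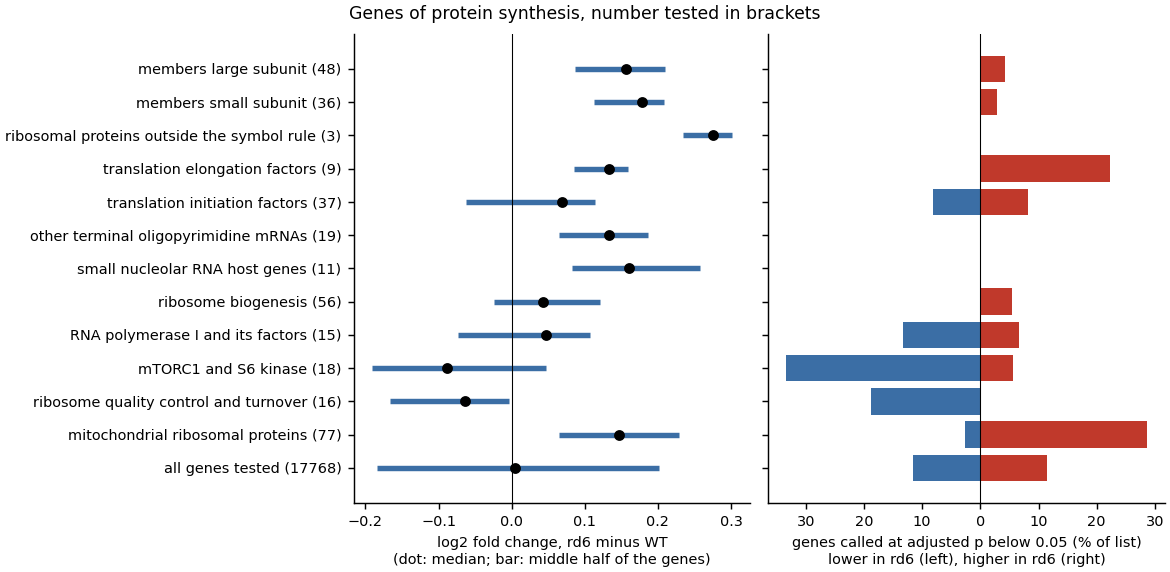
For each gene list, with the number tested in brackets, the left panel gives the median log2 fold change (dot) and the range from the 25th to the 75th percentile (bar), and the right panel the percent of genes called lower (left, blue) and higher (right, red) at q below 0.05 in limma. The ribosomal protein lists sit above 0 with few calls, mitochondrial ribosomal proteins have 22 calls upward, and the mTORC1 list has 6 downward.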

How the data were processed

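RPE libraries of 6 WT and 6 rd6 mice were analysed. Per the study's methods, mapping to mm10 and quantification used Rsubread with its standard parameters, and whether strand was used is not given in the sources used here. The authors deposited normalized counts, a signal obtained from the reads of a gene with DESeq2 size factors. The authors' own log2 fold changes, Wald score and p-values were deposited too and were not used. Values were whole multiples of 1 read, within 0.01 reads, in each library (100%), so reads were recovered. The main test was limma 3.58.1 (R 4.3.3) on log2(value + 1) with genotype as the only term, over 17768 genes with a mean of at least 10. Fold changes on this scale understate those of low genes. The alternatives on recovered reads were edgeR 4.0.16 and DESeq2 1.42.0. Exact permutation tests are two-sided over 924 splits. Stretches of 100 bases were compared among GENCODE M21 transcripts (GRCm38). Scripts were tested on simulated data.

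Members and gene lists were chosen with earlier results of these data known. Genes were named by rule: the 5 largest and 5 smallest fold changes, the highest and lowest levels, calls, structural groups, paralogs, nearness to Mfrp, and the 3 largest calls of each list. Other settings were pseudocounts of 0.1 and 10, other filters and scalings, a replicate block, and each library left out. Depth intervals cover counting error only. Results of a few genes are not reported here.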

Additional observations from a re-analysis of the deposited data

Results flagged for a closer look

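A library was set apart from the other 5 of its group by Dixon's test in 3 of the 72 combinations of a named member and a group that were examined, and chance gives about 1 in 20. Rpl12 was at 155 in WT replicate 4, where the other WT libraries had 86.8 to 109. Rpl13 was at 323 in the same library, where the other WT libraries had 202 to 247. Rps12l1, the retrocopy of Rps12, was at 2256 in rd6 replicate 5, where the other rd6 libraries had 1612 to 1761. Both libraries had the highest family level of their groups, and the summed markers of ocular surface epithelium were 182023 and 100907 in them.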

How the results depend on the processing

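The median log2 fold change of the 84 members stayed between 0.11 and 0.21 when single libraries were left out and was -0.027 without WT replicates 1, 2 and 3. The number of members higher (3 in limma) was 6 on CPM, 7 with upper-quartile rescaling, 6 without WT replicate 4 and rd6 replicate 5, 1 without the filter, 1 without WT replicates 1, 2 and 3, and 1 to 10 when single libraries were left out, with 10 without WT replicate 4. The number lower was 0 to 1, the call being Rps23rg1 without WT replicate 4. Relative to the family, 0 members were higher with edgeR, with copies summed (where Rpl3l is not among the summed proteins) and without WT replicate 4 and rd6 replicate 5, and 0 to 1 were higher and 0 to 1 lower when single libraries were left out. Of the other genes of protein synthesis 64 were higher on CPM, 51 with upper-quartile rescaling and 5 without WT replicates 1, 2 and 3, where 3 were lower. When single libraries were left out, 18 to 44 were higher and 11 to 19 lower. The median of all genes moved by 0.05 on CPM and by 0.04 with upper-quartile rescaling. Calls over all genes were 2750 higher and 1557 lower on CPM, 2453 and 1598 with upper-quartile rescaling, and 2024 and 2062 as deposited. They were 1127 and 774 without WT replicates 1, 2 and 3, and 2244 and 2331 without WT replicate 4 and rd6 replicate 5. Without the filter they were 1927 and 1865 of 28591 genes. With single libraries left out, 1631 to 2428 of all genes were higher and 1593 to 2293 lower. Summing copies and leaving out WT replicates 1, 2 and 3 or WT replicate 4 with rd6 replicate 5 were chosen after seeing the data, and the cause of these moves was not tested.

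Same-numbered WT and rd6 libraries did not deviate together (mean correlation -0.25, above 0.1 in 1 of 6 pairs). Such correlations cannot tell whether same-numbered samples shared a litter or a day. With the replicate block 1 member was higher (Rpl3l), 0 relative to the family, and 21 other genes of protein synthesis. Of all 17768 genes 1453 were higher and 1489 lower between the genotypes with that block.

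Without the 10 most abundant genes the members took 0.556% of WT and 0.648% of rd6 counts, a ratio of 1.16. Some members changed sign, also members with a change near the family's median: with copies summed Rpl36a was at 0.19, Rpl9 at 0.075, Rpl13a at 0.19 and Rplp1 at 0.050. On CPM Rpl13a was at 0.035, Rpl22l1 at 0.043 and Rplp1 at 0.043, and with upper-quartile rescaling at 0.022, 0.029 and 0.030. Without WT replicates 1, 2 and 3 Rps25 was at -0.016, Rplp0 at -0.12, Rpsa at -0.055 and Rpl5 at -0.085. When single libraries were left out, Rpl13a ran from -0.069 to 0.030, Rpl22l1 from -0.083 to 0.092 and Rplp1 from -0.080 to 0.046. In all, 425 of 491 recomputed fold changes of 19 genes kept their direction and side of the threshold.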
